A study of Mus musculus with 2 samples.

Results

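Mir128-1, Mir128-2, Mir218-1 and Mir218-2 are 4 microRNA genes of 2 families, each family with 2 copies that lie in introns of different protein-coding genes. They were chosen by their gene symbol in the mouse annotation GENCODE M21, a rule that uses no values. Earlier results of these data were known when the choice was made. They are 4 of the 2202 microRNA genes counted. All 4 were measured by small RNA sequencing of hippocampus from female B6CASTF1/J mice at 14 days of age, the first-generation cross of C57BL/6J and CAST/EiJ. The labels give 1 group with 2 biological replicates of 1 library each, and every library pools 3 females per the labels. The tissue is labelled as a layer of hippocampus without naming the layer, and no treatment or mutation is given. With 1 group, the values describe levels and the difference between the pools, and pool and library preparation cannot be told apart.

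A microRNA is cut from a hairpin in a longer transcript, and the mature strand guides Argonaute proteins to messenger RNAs, mainly through the seed, the bases near its 5′ end that pair with the target. MiR-128 is enriched in brain and, in mice, restrains neuronal excitability, so that its loss from neurons leads to seizures. MiR-218 is known from motor neurons, where mice need it for survival, and is also made in forebrain neurons. An intronic microRNA is usually transcribed together with its host gene.

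The mature products are shown first, because the copies of a family differ in one arm of the hairpin and are identical in the other. They are written 5′ to 3′ with the seed, bases 2 to 8, in capitals, and come from RefSeq on GRCm38.p6, where all 4 genes were matched with the same coordinates as in M21.
mmu-miR-128-3p, from both Mir128 copies: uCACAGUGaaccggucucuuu
mmu-miR-128-1-5p, from Mir128-1: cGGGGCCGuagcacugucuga
mmu-miR-128-2-5p, from Mir128-2: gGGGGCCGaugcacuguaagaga
mmu-miR-218-5p, from both Mir218 copies: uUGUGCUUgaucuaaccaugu
mmu-miR-218-1-3p, from Mir218-1: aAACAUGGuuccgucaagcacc
mmu-miR-218-2-3p, from Mir218-2: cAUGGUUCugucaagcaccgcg

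The shared products, mmu-miR-128-3p and mmu-miR-218-5p, each occur in 2 of 1005 annotated mouse hairpins, and each of the other products occurs in 1. Counted from 1 at the 5′ end of mmu-miR-128-1-5p, mmu-miR-128-2-5p differs at 5 of 21 compared positions, C1G, U9A, A10U, C18A and U19A, and keeps the seed GGGGCCG. The mmu-miR-218-2-3p product starts at position 4 of mmu-miR-218-1-3p and differs at 1 of 19 compared positions, C12U, counted from the 5′ end of mmu-miR-218-1-3p. That shift gives the Mir218 products of this arm different seeds, AACAUGG and AUGGUUC. Among 1738 mature sequences, mmu-miR-218-5p shares its seed with 1 product outside the families, mmu-miR-7002-3p, whose gene Mir7002 had 1 count in each library. The mmu-miR-218-1-3p seed is shared with mmu-miR-496b, whose gene had 0 counts in both, and the other seeds were found in no further mouse product of this table.

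The hairpins, with the mature products in capitals, show where the copies of a family share sequence and where they differ.
Mir128-1: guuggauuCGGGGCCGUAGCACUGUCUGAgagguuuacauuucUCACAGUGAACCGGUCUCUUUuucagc
Mir128-2: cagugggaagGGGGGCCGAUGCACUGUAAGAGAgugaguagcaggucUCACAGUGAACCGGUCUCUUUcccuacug
Mir218-1: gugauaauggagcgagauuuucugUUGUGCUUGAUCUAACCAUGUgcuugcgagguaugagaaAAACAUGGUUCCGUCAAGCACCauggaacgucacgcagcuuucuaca
Mir218-2: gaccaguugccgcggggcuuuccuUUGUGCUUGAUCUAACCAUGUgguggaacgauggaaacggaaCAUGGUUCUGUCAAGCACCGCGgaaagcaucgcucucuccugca

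The longest run common to both Mir128 hairpins is 23 bases, the shared product with 2 bases before it. Directly after it the copies differ, with U in Mir128-1 and C in Mir128-2. The longest run common to both Mir218 hairpins is 22 bases, the shared product with 1 base after it, beyond which Mir218-1 has C and Mir218-2 has G. Of all stretches of 22 bases, 47 of 49 in Mir128-1, 53 of 55 in Mir128-2, 88 of 89 in Mir218-1 and 88 of 89 in Mir218-2 occur in no other annotated hairpin. A read that equals a shared product fits both copies. The deposited tables hold multi-mapping reads on a line of their own, 40.8% of the reads of replicate 1 and 37.1% of replicate 2, outside the gene counts. That such reads are not also counted in genes is read from the column totals, since the genes and the lines of no gene sum to the same total in every column, and the rule by which a read was called multi-mapping is not given in the sources used here. On this reading, the counts that follow are of reads assigned to 1 copy and are no measure of all miR-128 or miR-218. The tables do not separate the 2 arms of a hairpin.

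The host genes differ in kind between the families. Mir128-1 (ENSMUSG00000065520.2) lies at chr1:128202361-128202430 on the plus strand of GRCm38, within R3hdm1, which encodes a protein with an R3H domain, a fold known for binding nucleic acids. It sits in intron 19 of 26 of the longest coding transcript that holds it, and 2 of 8 coding transcripts of the gene have it in an intron. Mir128-2 (ENSMUSG00000065441.2) lies at chr9:112118636-112118711 on the minus strand, within Arpp21, which encodes a phosphoprotein regulated by cyclic AMP in brain. It sits in intron 19 of 20 of the gene's principal coding transcript, 471 bases after the start of an intron of 51873 bases. Mir218-1 (ENSMUSG00000065603.1) lies at chr5:48223942-48224051 on the plus strand, within Slit2, and Mir218-2 (ENSMUSG00000065583.1) at chr11:35616816-35616925 on the plus strand, within Slit3. Slit2 and Slit3 encode secreted ligands of Robo receptors that guide growing axons. Both Mir218 copies sit in intron 14 of 35, in the longest Slit2 coding transcript that holds Mir218-1 and in the annotated Slit3 coding transcript, in introns of 4572 and 9571 bases. All 4 genes lie on the strand of their host, overlap no exon of it and no other annotated gene, and start between 68.6% and 84.4% of the way along it. The libraries hold small RNA, so the host messenger RNAs were not measured.

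**Figure D1:**
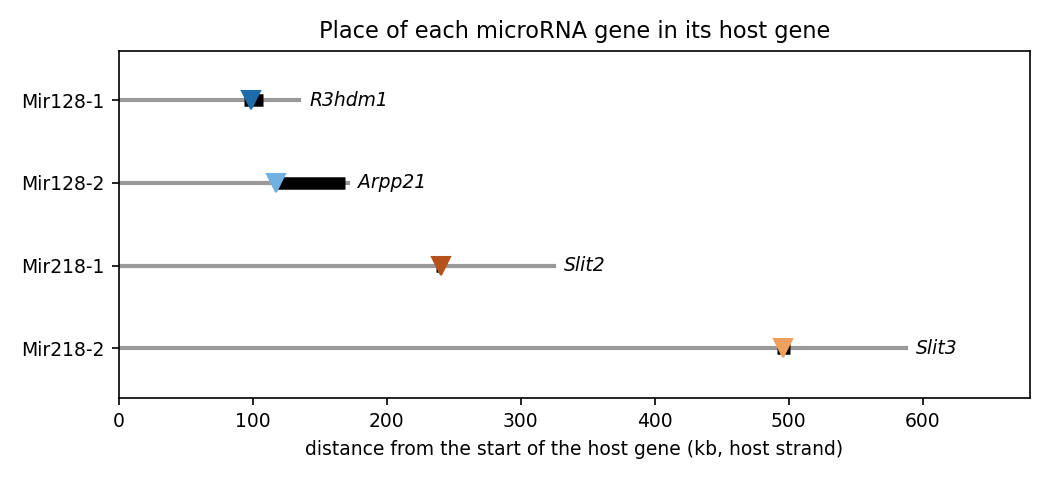
Each grey line is a host gene from its start (left) to its end, in kb along the host strand, the black bar is the intron that holds the microRNA gene and the triangle marks the microRNA gene. All triangles lie in the last part of the host, between 68.6% and 84.4% of its length, and Mir128-2 sits at the very start of a long intron.

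In counts assigned to single copies, the Mir128 genes were abundant and the Mir218 genes scarce. Levels are given as CPM, counts scaled to a common total of reads assigned to microRNA genes. The assigned reads numbered 4764797 for replicate 1 and 2852269 for replicate 2. Reads come from short products of nearly equal length, so no length correction was made. Intervals given here are exact (Clopper-Pearson) at 95% and cover counting error only, since amplified reads without molecular identifiers are not independent molecules.

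Mir128-1 had 35285 counts in replicate 1, or 7405 CPM, and 7245 counts in replicate 2, or 2540 CPM. It ranked 30 of 2202 genes in replicate 1 and 65 in replicate 2. Mir128-2 had 11755 counts, or 2467 CPM, in replicate 1 and 3040 counts, or 1066 CPM, in replicate 2, with ranks of 67 and 101. Replicate 1 was the higher library for both copies.

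Mir218-2 had 406 counts in replicate 1, or 85.2 CPM (interval 77.1 to 93.9), and 272 counts in replicate 2, or 95.4 CPM (84.4 to 107.4). Its intervals overlap, and its ranks were 218 and 212. Mir218-1 had 114 counts in replicate 1, or 23.9 CPM (19.7 to 28.7), and 15 counts in replicate 2, or 5.26 CPM (2.94 to 8.67). Its intervals do not overlap, and its ranks were 273 and 366. All 4 genes exceeded the detection minimum of 10 counts in both libraries, which 409 of the 2202 genes reached.

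The mean level over the libraries was 4973 ± 3440 CPM (SD, n = 2) for Mir128-1, 1766 ± 991 for Mir128-2, 90.3 ± 7.18 for Mir218-2 and 14.6 ± 13.2 for Mir218-1. This order held within each library. Between libraries, the lower value of Mir128-1, 2540 CPM in replicate 2, lay just above the higher value of Mir128-2, 2467 CPM in replicate 1, so these neighbours in the order differed in mean by less than the SD of Mir128-1. The steps below were wider than the spread. Mir128-2 stood 29.0-fold above Mir218-2 in replicate 1 and 11.2-fold in replicate 2, and the libraries of Mir218-2 and Mir218-1 did not overlap. Together the 4 genes held 0.998% of assigned reads in replicate 1 and 0.371% in replicate 2, almost all from Mir128. The Mir128 copies summed to 9872 and 3606 CPM, and the Mir218 copies to 109.1 and 100.6 CPM.

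**Figure D2:**
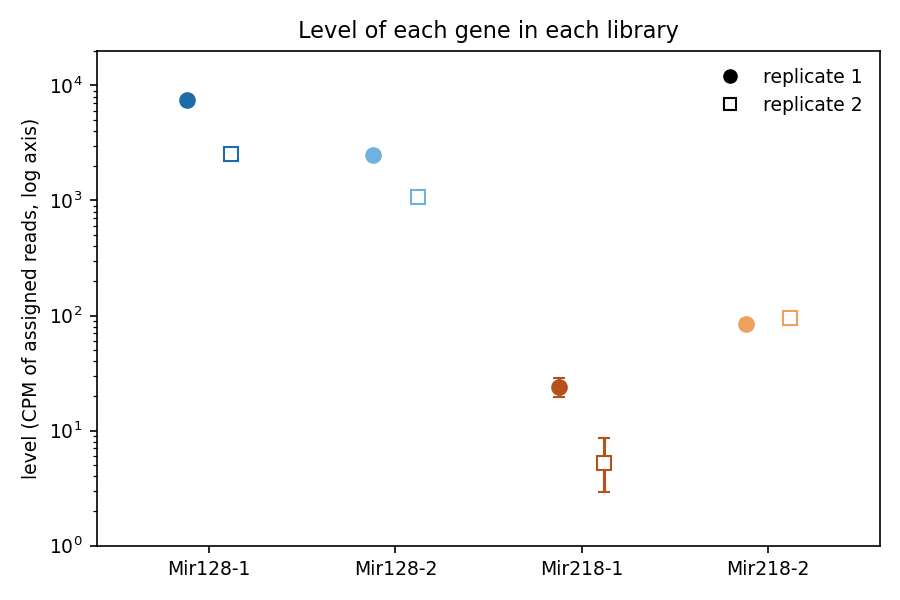
Level of each gene in CPM of assigned reads on a log axis, with filled circles for replicate 1, open squares for replicate 2 and bars for the exact 95% counting interval, which is smaller than the symbol for the Mir128 genes. Mir128-1, Mir128-2 and Mir218-1 are lower in replicate 2, while Mir218-2 is at 85.2 and 95.4 CPM.

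Both Mir128 copies and Mir218-1 were lower in replicate 2 than in replicate 1, and Mir218-2, the Slit3 copy, was not. For each gene the log2 ratio of replicate 2 to replicate 1 was taken with library sizes scaled by TMM, and an exact binomial test with Benjamini-Hochberg adjustment over the 450 genes with 20 or more counts in the sum of both libraries compared these libraries, not conditions. By this test 144 of the 450 genes were lower in replicate 2 (32.0%) and 148 were higher (32.9%). Differences past 2-fold were rarer, with 51 genes lower (11.3%) and 48 higher (10.7%). Mir128-1 had a log2 ratio of -1.42 (interval -1.46 to -1.38), 2.68-fold lower in replicate 2, and Mir128-2 a log2 ratio of -1.09 (-1.15 to -1.03), 2.13-fold lower. Mir218-1 had a log2 ratio of -2.06 (-2.95 to -1.28), 4.18-fold lower, with an adjusted p of 2.52e-09 in the exact binomial test. These 3 of the 4 genes passed the test and lay past 2-fold.

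Mir218-2 had a log2 ratio of 0.28 (0.06 to 0.51), 1.22-fold higher in replicate 2, with an adjusted p of 0.0208 in the exact binomial test. This call was lost with total counts as library sizes (log2 ratio 0.16, adjusted p = 0.205) and with no filter on low counts (0.21, adjusted p = 0.142), and it does not reach an adjusted p under 0.01. Scaled to the median of the neuron-enriched list described further on, its direction turned (-0.024, adjusted p = 0.872). Over all 8 alternatives that gave this ratio anew, its adjusted p in the exact binomial test ran from 0.0118 to 0.872, and 5 kept the call. Total counts in place of TMM scaling lower every log2 ratio by 0.12 and left the other 3 genes lower in replicate 2. The median over the 4 genes was -1.26, beside 0.01 over all 450 genes tested.

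**Figure D3:**
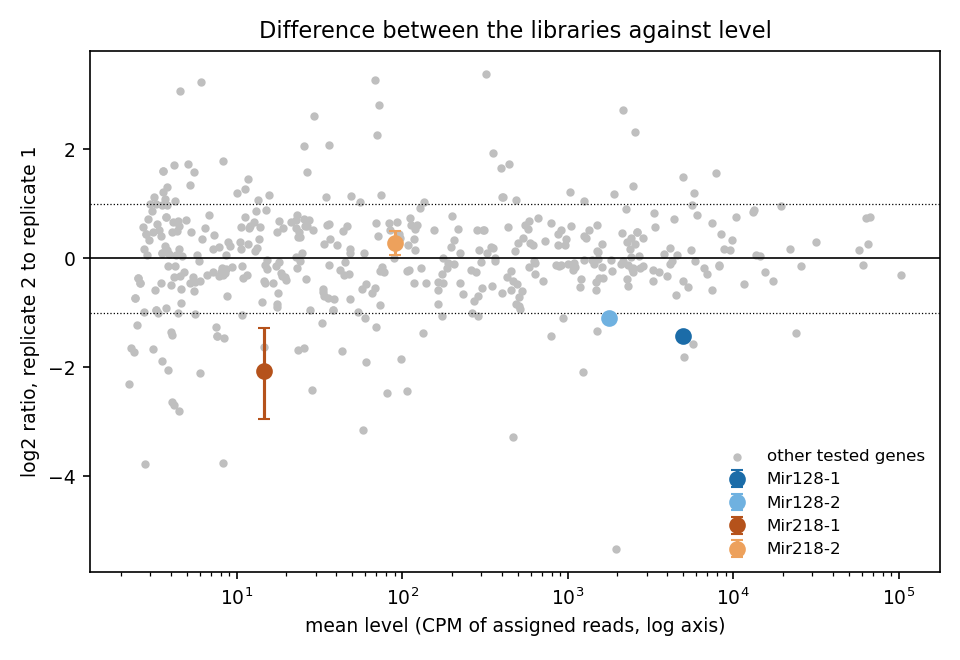
Log2 ratio of replicate 2 to replicate 1 against mean level in CPM of assigned reads (log axis) for the 450 tested genes, grey except for the 4 named ones, whose bars are exact 95% counting intervals. Dotted lines mark a 2-fold difference. Mir128-1, Mir128-2 and Mir218-1 lie below the lower line and Mir218-2 at 0.28.

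The copies of each family shifted unequally between the libraries. Of the counts of both Mir128 copies, Mir128-1 held 75.0% in replicate 1, with an interval of 74.6 to 75.4%, and 70.4% in replicate 2, with an interval of 69.6 to 71.3%. The log2 ratio of Mir128-1 was lower than that of Mir128-2 by 0.33, a difference of -0.33 with an interval of -0.40 to -0.26. Fisher's exact test, two-sided and adjusted over all 21 pairs of copies that could be tested, gave p = 2.57e-20. Mir128-1 was the more counted copy in both libraries.

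Of the counts of both Mir218 copies, Mir218-1 held 21.9% (interval 18.4 to 25.7%) in replicate 1 but 5.23% (2.95 to 8.47%) in replicate 2. The difference in log2 ratio between Mir218-1 and Mir218-2 was -2.35 (-3.26 to -1.53), with p = 1.79e-10 by the same Fisher's exact test. The Slit3 copy had 3.56 counts per count of the Slit2 copy in replicate 1 and 18.1 in replicate 2. The value for replicate 2 rests on 15 counts of Mir218-1. These differences do not depend on the scaling of the libraries, since both copies are counted in the same library.

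Other families with several copies give the frame for this. Of the 21 pairs in which each copy reached 20 counts over both libraries, 10 passed Fisher's exact test (47.6%), and the median size of the difference in log2 ratio was 0.40. The Mir218 pair had the largest difference of the 21, and the Mir128 pair ranked 12. Among the other pairs with at least 100 counts for each copy, the largest differences were 2.22 for Mir24-1 against Mir24-2, which had 185 and 208 counts against 224 and 54, and -1.30 for Mir26a-1 against Mir26a-2. Mir24 and Mir26a are microRNAs made in many tissues. The smallest were 0.00 for Mirlet7f-1 against Mirlet7f-2, of a family that restrains proliferation in maturing tissue, and 0.03 for Mir125b-1 against Mir125b-2. For Mirlet7f-1 the share of its pair was 5.48% in both libraries, and for Mir125b-1 it was 74.7% and 75.1%.

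**Figure D4:**
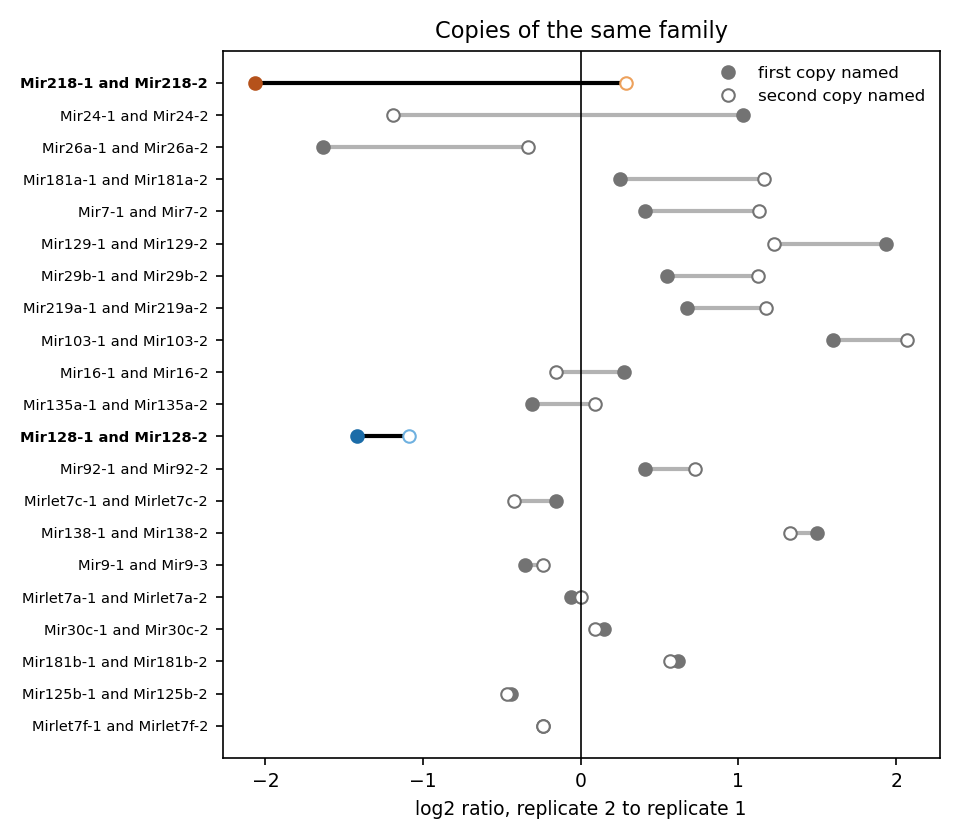
Log2 ratio of replicate 2 to replicate 1 for both copies in each of 21 pairs, filled for the copy named first and open for the second, with the pairs ordered by the size of their difference. The Mir218 pair is at the top with a difference of -2.35 and spans 0, while both Mir128 copies lie below -1.

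Other neuron-enriched microRNAs were more often higher than lower in replicate 2. Of 25 such genes in a fixed list, 22 could be tested, with a median log2 ratio of 0.31. Of these, 12 were higher in replicate 2, 5 were lower and 5 did not pass. Over all 450 genes tested, 32.9% were higher and 32.0% lower. Mir132, an activity-induced microRNA, rose from 4678 to 7461 CPM, with a log2 ratio of 0.80 after TMM scaling, which the CPM values do not include. Mir138-1 and Mir138-2, copies of a microRNA that limits dendritic spine size in rat neurons, had log2 ratios of 1.50 and 1.33. Mir127, from the imprinted Dlk1-Dio3 region, had 0.75.

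Mir137, a regulator of neuronal maturation, fell from 6526 to 4153 CPM, with a log2 ratio of -0.53 after TMM scaling. Mir7b had -0.20 and Mir134, which limits spine size in rat hippocampal neurons, had -0.09, both past the test, while Mir874 at -0.03 did not pass. In this list only Mir153, at -1.38, was lower by more than 2-fold, and 7 genes were higher by more than 2-fold. Mir153 was singled out after its values were seen. The 3 genes of the list that could not be tested were Mir124a-2, Mir124a-3 and Mir9-2.

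**Figure D5:**
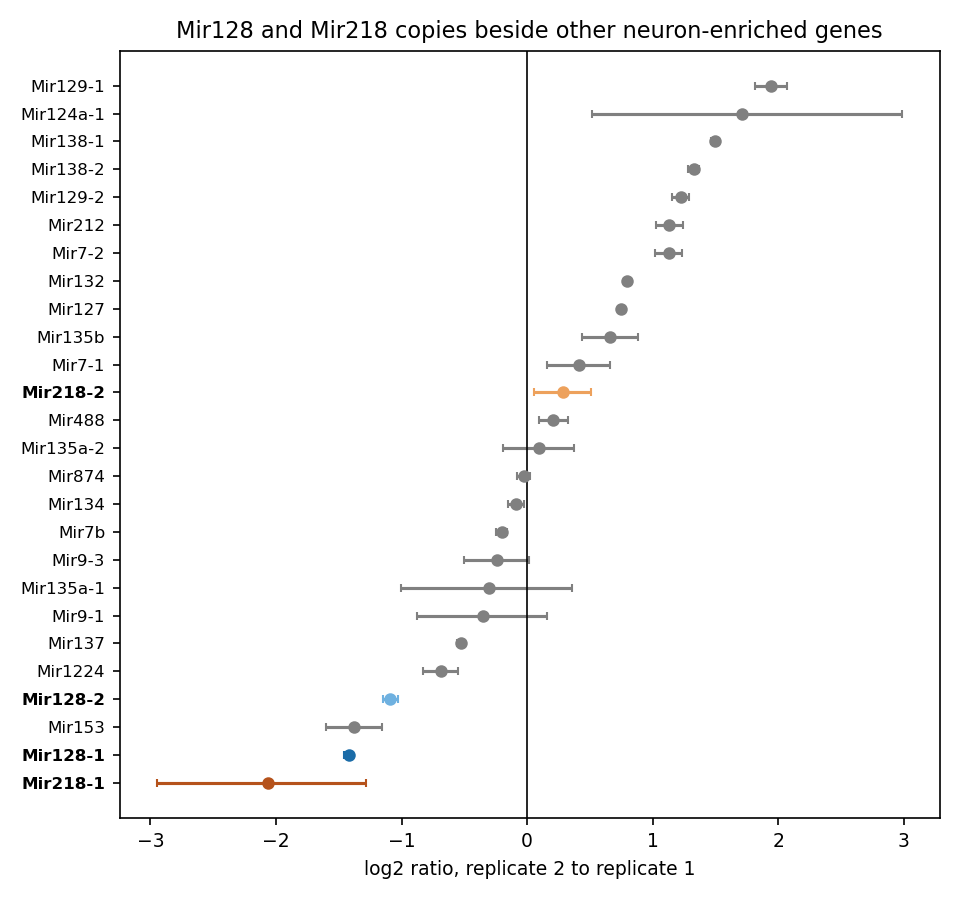
Log2 ratio of replicate 2 to replicate 1 with exact 95% counting intervals for the 4 genes (bold, coloured) and 22 other neuron-enriched genes (grey), ordered by ratio. Mir218-1 and Mir128-1 take the lowest places at -2.06 and -1.42. Mir218-2 lies near the middle at 0.28, beside a median of 0.31 for the 22 other genes.

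Other intronic genes and other families with several copies are given for comparison. Of 737 other microRNA genes in an intron of a coding gene on the same strand, 191 could be tested, with 55 higher, 55 lower and a median log2 ratio of 0.06. Of these, 25 were lower past 2-fold, or 13.1%, beside 11.3% over all 450 genes tested. Of 134 genes in other families with several copies, 41 could be tested, with 23 higher, 8 lower and a median of 0.41, and 2 were lower past 2-fold. Copies of Mir138, Mir129, Mir7, Mir9, Mir135a and Mir124a belong to these families and to the neuron-enriched list. Intronic genes such as Mir153 and Mir874 are in that list too, so the lists are not independent comparisons.

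The genes with the nearest log2 ratio, among those with a mean count of at least 100, were Mir449a (-1.42) and Mir744 (-1.38) for Mir128-1, Mir872 (-1.09) and Mir374b (-1.09) for Mir128-2, and Mir204 (-2.09) and Mir214 (-1.90) for Mir218-1. Those nearest to Mir218-2 were Mir455 (0.29) and Mir341 (0.29). This likeness rests on 2 libraries and is a description. Mir449a is known from ciliated cells and Mir204 from choroid plexus, the secretory epithelium of the ventricles, and both belong to a marker list that moved in the same direction. Of the 7 genes of that list 5 could be tested and 4 were lower in replicate 2, and its summed share was 0.395% of assigned reads in replicate 1 and 0.119% in replicate 2. Markers of other epithelia moved the other way, from 0.0173% to 0.0543%, with 7 of 9 tested genes higher and 1 lower. Microglia and immune markers had 4 of 7 tested genes lower and 1 higher, but their summed share was 0.650% in replicate 1 and 0.914% in replicate 2. Vessel markers had 2 of 3 lower and 1 higher, with a summed share of 1.60% in replicate 1 and 2.03% in replicate 2. Astrocyte markers had 4 of 5 tested genes higher, oligodendrocyte markers 2 of 3 and red cell markers 1 of 3, with 0 lower. All marker counts here stand beside 32.0% lower and 32.9% higher over all 450 genes tested, and several lists hold few genes. The 6 neuron markers held 1.40% and 1.88%, and of the 4 that could be tested 3 were higher and 1, Mir137, was lower. Almost all of their counts came from Mir132, Mir137 and Mir138-1. Mir124a-1, Mir124a-2 and Mir124a-3 had 10, 2 and 0 counts in replicate 1 and 18, 1 and 1 in replicate 2. The part of these cell types in the difference of the Mir128 and Mir218 genes was not tested, and in tissue a lower count from fewer cells cannot be told apart from less RNA per cell.

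In mean level Mir128-1 stood between Mir370 at 5079 ± 4192 CPM (SD, n = 2) and Mir130a at 4967 ± 1280, and Mir128-2 between Mir874 at 1823 ± 134 and Mir708 at 1630 ± 378. Mir218-2 stood between Mir136 at 91.1 ± 3.57 and Mir193b at 88.9 ± 5.20. Mir218-1 stood between Mir7059 at 14.7 ± 3.89 and Mir26a-1 at 14.6 ± 11.2. None of these neighbours differed in mean from the gene beside it by more than the larger of their SDs.

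The strand opposite to the 4 genes had 0 counts for each of them in both libraries, and their counts were the same when strand was ignored. The GC content of the hairpins was 50.0% for Mir128-1, 56.6% for Mir128-2, 45.5% for Mir218-1 and 54.5% for Mir218-2, beside a median of 51.7% over 1005 hairpins. Within each family the hairpin of lower GC content had the lower log2 ratio, a description of 2 pairs. In the products that differ between copies this order held for Mir218 and was reversed for Mir128. The GC content was 50.0% for mmu-miR-218-1-3p and 59.1% for mmu-miR-218-2-3p. It was 66.7% for mmu-miR-128-1-5p and 60.9% for mmu-miR-128-2-5p. The part of GC content in the difference was not tested.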

How the data were processed

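Small RNA libraries from 2 replicates were analysed. The authors deposited raw counts of reads per microRNA gene, made on mm10 with GENCODE M21 per the file headers in the accompanying text. Which aligner and counter were run is not given in the sources used here. Of the strand columns, the one with more counts in all was read as sense. The lines that name no gene, 63.9% of the reads of replicate 1 and 63.6% of replicate 2, stayed out of library sizes. All 2202 identifiers matched M21.

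CPM, mean and SD were computed from these counts. Log2 ratios used TMM sizes from edgeR 4.0.16 (R 4.3.3) on genes with 20 or more counts in the sum of both libraries. Each was tested by a two-sided exact binomial test with Benjamini-Hochberg adjustment at 0.05. With 1 group, edgeR's quasi-likelihood test could not be applied. Both steps compare libraries. Copies were compared by Fisher's exact test, whose adjustment was widened to all pairs of copies after seeing the data. This binomial test was checked on simulated data that held counting noise alone, so its calls were not checked against the spread between pools. Tests ran in scipy 1.17.1 under Python 3.11.15, with pandas 2.3.3, and figures were drawn with matplotlib 3.10.9.

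The members, lists and rules were chosen with earlier results of these data known. Genes named were the 4 members, the 8 most abundant detected genes of the neuron-enriched list, the neighbours of each member in level and the 2 nearest in log2 ratio, the pairs of copies that differed most and least, and genes sharing a seed. Alternatives were the unstranded counts, DESeq2 1.42.0 size factors, total counts, other count minimums, leaving out a replicate or the most abundant gene, thinning the deeper library, an adjusted p under 0.01, a 2-fold threshold and CPM over all reads. Scaling to the neuron-enriched median was added after seeing the data. No genome sequence was used, so matches elsewhere than in annotated hairpins were not looked for.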

Additional observations from a re-analysis of the deposited data

How the results depend on the processing

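Mir128-1, Mir128-2 and Mir218-1 stayed lower in replicate 2 and past the test in every alternative that gave a value, with log2 ratios from -1.73 to -1.40, -1.40 to -1.06 and -2.37 to -2.04. Mir218-1 gave no value at a summed count of at least 200. Mir218-2 kept its direction but lost its call with total counts as library sizes (0.16), with no filter on low counts (0.21) and at an adjusted p under 0.01, and it turned to -0.024 when the median of the neuron-enriched list was set to 0, an alternative added after seeing the data. With a 2-fold threshold in place of the test, higher and lower genes numbered 7 and 1 in the neuron-enriched list. They numbered 12 and 2 in other families with several copies, 17 and 25 among other intronic genes and 48 and 51 over all genes. Each of these counts was smaller than by the test. With CPM taken over all reads, all 4 mean levels were lower, at 1799 for Mir128-1, 639 for Mir128-2, 32.7 for Mir218-2 and 5.28 for Mir218-1, because the divisor holds unassigned reads. Unstranded counts equal the sense counts of the 4 genes, so they could not change the differences between copies. Both differences passed Fisher's exact test when adjusted over all pairs, as given above, or over the 2 pairs alone. Leaving out a replicate leaves the value of the other library, and no ratio can then be had. No paired analysis was possible because there is 1 group. Thinning was applied to ratios and calls only. Depth limits Mir218-1, whose 15 counts in replicate 2 leave a wide interval.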
